A study of Mus musculus with 12 samples.

Results

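The transcripts described here are those of Egr2 (Krox20), Egr3 and Egr4, members of the early growth response family of zinc finger transcription factors, and of Nab1 and Nab2, the cofactors that bind Egr proteins. They were chosen by symbol, and all 5 were found among the 25700 genes listed in the count table. RNA was measured in 12 libraries of Schwann cells (SCs) sorted from mouse sciatic nerves at postnatal day 5 (P5), with 4 libraries from each of the mSC, nmSC and allSC gates. All mice carried a Cre transgene active in SCs together with ReYFP Tg/+ and βAct-DsRed Tg/+ on the C57BL/6J background, so that eYFP marked SCs while DsRed marked all cells. The mSC gate took eYFP-positive cells of high side scatter, enriched in myelinating SCs. The nmSC gate took those of low side scatter, enriched in SCs that were not myelinating, and the allSC gate took both. No treatment is described and there was no mutant group. In each sample the cells came from 1 mouse, and mice of both sexes were used. The subject label gives libraries with the same replicate number the same mouse in every gate.

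Egr2 is the master regulator of peripheral myelination. It switches on genes of myelin proteins and of lipid synthesis and, together with Nab proteins, holds down genes of immature SCs. Nab1 and Nab2 bind a repression domain shared by Egr1, Egr2 and Egr3 and recruit the NuRD chromatin remodelling complex through its subunit Chd4, and mice without both Nab genes have a severe failure of myelination. Egr1 and Egr3 are better known as immediate early genes, and Egr3 is needed for the formation of muscle spindles. Egr4 is known from neurons and germ cells and lacks the domain that Nab proteins bind.

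Libraries held between 8180927 and 16918122 counted reads. Levels are given in counts scaled to the size of the library (CPM) after TMM normalization, which scales libraries by the bulk of their genes, and 3 counts, the least taken here as detected, correspond to between 0.198 and 0.375 CPM. A few abundant genes weighed more on the mSC libraries, where the top 50 genes held 26.5% to 30.6% of all counts against 16.9% to 17.6% in nmSC. TMM factors ran from 0.744 to 0.871 in mSC and from 1.16 to 1.28 in nmSC. The library mSC replicate 4 stood apart from its gate, with the lowest factor and a chi-square per degree of freedom of 50.6 to 95.7 against the other mSC libraries, which had 6.01 to 22.1 among themselves, so fold changes of mSC against nmSC are also given without it for the members. The SC markers Sox10, Mbp and Ncmap were expressed in every gate. Of 20 markers of endothelial, immune, fibroblast-like, perineurial, mural, neuronal and muscle cells, 17 had summed levels between 29.1 and 52.5 CPM in every library, and none of them averaged more than 9.09 CPM in a gate. The other 3, Itgb4, Slc2a1 and Pdgfrb, brought the sum to between 216 and 407 CPM in mSC and between 269 and 439 CPM in nmSC. The cycling markers Mki67 and Top2a summed to between 35.5 and 57.9 CPM in mSC and between 474 and 609 CPM in nmSC, and the part of cycling cells in the results below was not tested.

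Egr2 is found on chromosome 10 (GRCm38, 67535475 to 67542188, plus strand), and Nab2 on the same chromosome (127660918 to 127668568, minus strand). Egr3 is on chromosome 14 (70077203 to 70082614, plus strand), Egr4 on chromosome 6 (85511121 to 85513589, minus strand) and Nab1 on chromosome 1 (52457294 to 52500679, minus strand). No other annotated gene overlaps Egr2, Egr3, Egr4 or Nab1. The exons of Nab2 share 40 bases with Stat6, 151 with Nemp1 and 1050 with the antisense gene Gm16229, all on the opposite strand. The bases shared with Gm16229 make up 35.7% of the exon length of Nab2. How the counting treated strand and reads in shared bases is not stated. Such reads may have been mixed between Nab2 and these genes or left out of the count. The zinc fingers of Egr proteins are alike, and the treatment of reads that fit several genes is not stated either.

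The 250 bases before the start of 4 of the 5 genes were read from RefSeq (GRCm38.p6). No window was available for Egr3, so the matches below do not cover it. The RefSeq starts of the windows shown lie inside the spans given above, 231 bases from the 5′ end of that span for Nab1, 1865 bases for Nab2 and 2394 bases for Egr2, so these windows are not upstream of the outermost annotated start. The windows of Nab1 and Nab2 are shown because the levels of these 2 cofactors parted between the gates, and that of Egr2 because its level moved least of the 3 members that passed the test below. Each is written 5′ to 3′ on the strand of the gene. In the Nab1 window, at chr1:52500449-52500698, capitals mark the motif of Egr proteins, searched as GCGNGGGCG on both strands. In the Egr2 window, at chr10:67537619-67537868, capitals mark a CArG box, the motif of serum response factor that is typical of immediate early genes. The Nab2 window, at chr10:127666704-127666953, held neither.
Nab1: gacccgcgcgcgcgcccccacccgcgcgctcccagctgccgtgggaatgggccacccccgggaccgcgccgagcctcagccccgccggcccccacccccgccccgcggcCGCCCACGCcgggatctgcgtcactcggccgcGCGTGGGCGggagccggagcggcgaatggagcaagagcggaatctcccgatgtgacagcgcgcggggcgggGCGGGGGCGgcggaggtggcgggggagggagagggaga
Egr2: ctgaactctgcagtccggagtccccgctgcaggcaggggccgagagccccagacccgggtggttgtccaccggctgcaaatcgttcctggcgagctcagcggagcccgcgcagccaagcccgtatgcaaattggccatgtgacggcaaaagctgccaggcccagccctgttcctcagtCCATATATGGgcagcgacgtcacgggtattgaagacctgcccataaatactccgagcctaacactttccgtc
Nab2: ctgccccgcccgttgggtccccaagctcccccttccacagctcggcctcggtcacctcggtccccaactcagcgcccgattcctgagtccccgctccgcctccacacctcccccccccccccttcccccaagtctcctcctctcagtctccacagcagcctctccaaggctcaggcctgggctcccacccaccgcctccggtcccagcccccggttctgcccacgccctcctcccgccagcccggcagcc
The Nab1 window held the Egr motif 3 times, once on the opposite strand from 141 to 133 bases before the start and on the gene strand from 109 to 101 and from 38 to 30 bases before it. Of all 32851 windows of this length, 4.70% held at least 1 such motif and 0.140% held 3 or more, while the CArG box was found in 1.47%. Of the 5 annotated starts of Egr2, 4 had a CArG box within their windows, 3 of these windows overlap and hold the same box, and 1 start had neither motif. A cAMP response element, searched as TGACGTCA, was in no window of these 4 genes and in 1.55% of all windows. These matches describe letters only, and binding was not measured.

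Between the mSC and nmSC gates, Egr3 fell 16.3-fold and Nab1 rose 8.44-fold. Egr2 was the most abundant of the members in every gate. With TMM its rise in mSC was only 1.41-fold, and it was not called with library size alone. Nab2 did not pass the test with TMM, and Egr4 was hardly detected. Of the 5 members, 4 passed the filter on low counts, and 3 of these 4 had an adjusted p under 0.05, 2 of them higher in mSC. The test was the quasi-likelihood test of edgeR, with p-values adjusted by the Benjamini-Hochberg method over all genes, and SE is the standard error of a log2 fold change. Of the 18597 genes tested, 40.5% passed this threshold, 20.4% higher in mSC and 20.2% lower. In bulk RNA of a gate, fewer cells of a type and less RNA per cell cannot be told apart.

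Egr2 stood at 662, 727, 570.1 and 459 CPM in mSC libraries 1 to 4. In nmSC it was at 430, 443, 427 and 414 CPM, and in allSC at 603, 548, 473 and 485 CPM. All 4 mSC libraries lay above all 4 nmSC libraries, although mSC replicate 4 did so by little. The gates also differed in spread, with a coefficient of variation of 19.2% in mSC against 2.73% in nmSC. The means were 605 ± 116 CPM (SD, n = 4) in mSC and 428 ± 11.7 CPM (SD, n = 4) in nmSC, a log2 fold change of 0.50 with a 95% interval of 0.21 to 0.78 (SE 0.14, adjusted p = 0.00671 by edgeR). Egr2 was higher in mSC in 4 of 4 mice. The two-sided exact permutation p was 0.0286, the smallest that 4 libraries against 4 allow. It rose to 0.0571 with any 1 nmSC library left out. For each member, this test permuted libraries freely and ignored that the gates share mice. With swaps only within the 4 mice, no p under 0.125 is possible. Without mSC replicate 4, in which Egr2 was lowest of its gate, the log2 fold change was 0.62 (adjusted p = 8.40e-05 by edgeR).

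The direction of Egr2 depended on the scaling of the libraries. With library size alone the mSC libraries had between 341 and 600 CPM of Egr2 and the nmSC libraries between 480 and 553 CPM, and mSC was higher in 2 of 4 mice. The log2 fold change was then -0.058 (adjusted p = 0.735 by edgeR), and it was 0.14 (adjusted p = 0.413 by edgeR) when library size excluded the top 50 genes. These scalings shift all genes, as the median of the 18597 log2 fold changes shows, at -0.16 with TMM, -0.73 with library size and -0.53 without the top 50 genes. Against these medians Egr2 lay 0.66, 0.67 and 0.67 higher, in the same order. A scaling shifts all genes by nearly the same amount, so this distance could hardly move and does not settle the direction of Egr2. Its sign against 0 changed.

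**Figure D1:**
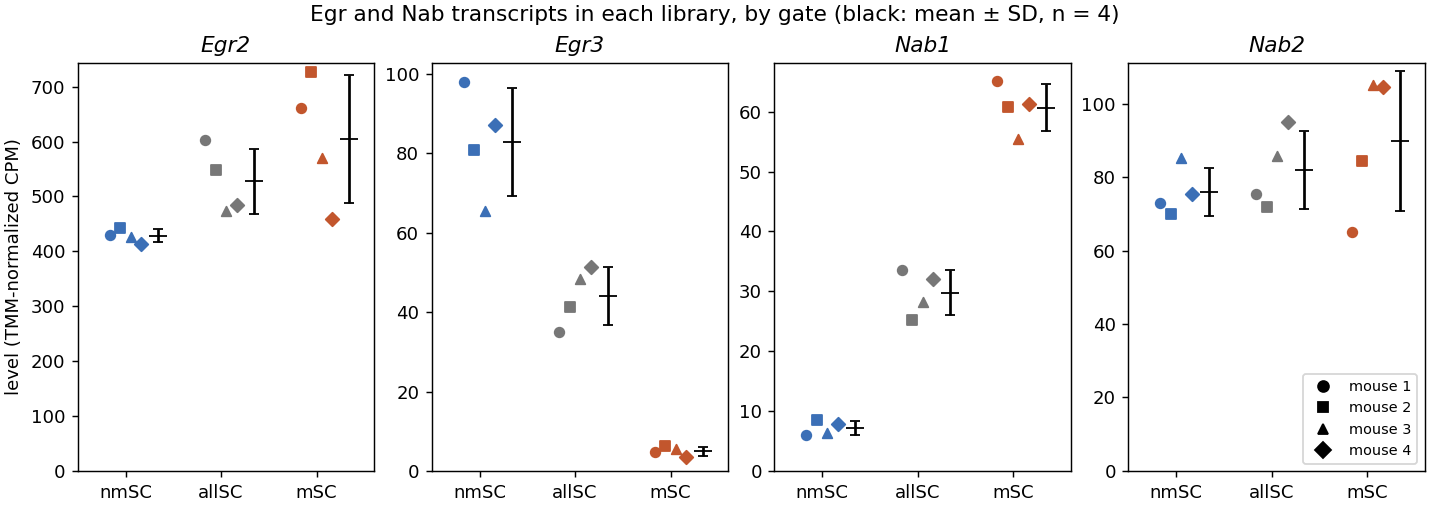
Levels of Egr2, Egr3, Nab1 and Nab2 (TMM-normalized CPM, linear axes from 0) in the 4 libraries of the nmSC, allSC and mSC gates, with 1 symbol per mouse and the mean ± SD (n = 4) in black. Egr3 is between 65.5 and 98.0 CPM in nmSC and at most 6.17 CPM in mSC, Nab1 shows the opposite order, and the ranges of Nab2 overlap.

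Egr3 stood at 98.0, 80.7, 65.5 and 87.1 CPM in nmSC libraries 1 to 4. In mSC it was at 4.82, 6.17, 5.52 and 3.50 CPM, which rests on between 28 and 71 counts per library, and in allSC at 35.0, 41.4, 48.3 and 51.4 CPM. The 3 gates did not overlap, with the highest mSC library far under the lowest allSC library. The means were 5.003 ± 1.15 CPM (SD, n = 4) in mSC and 82.8 ± 13.6 CPM (SD, n = 4) in nmSC, a log2 fold change of -4.03 with a 95% interval of -4.44 to -3.63 (SE 0.19, adjusted p = 5.74e-12 by edgeR). Counting Egr3 itself, 26 of the tested genes, or 0.140%, fell at least this far. It was lower in mSC in 4 of 4 mice, with an exact permutation p of 0.0286. Over the 4 scalings the log2 fold change of Egr3 lay between -4.59 and -3.96, and without mSC replicate 4 it was -3.91 (adjusted p = 2.36e-13 by edgeR).

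Egr4 had 4 counts over the 12 libraries. It had 2 counts in nmSC replicate 2 and 1 count each in nmSC replicate 3 and mSC replicate 3, and 9 libraries had none. All libraries lay under the 3 counts taken as detected, so no fold change is given, and a difference between the gates was not detectable at this depth. Egr4 was removed by the filter on low counts.

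Nab1 stood at 65.2, 60.8, 55.5 and 61.3 CPM in mSC libraries 1 to 4. In nmSC it was at 6.06, 8.43, 6.28 and 7.92 CPM, from between 63 and 120 counts per library, and in allSC at 33.6, 25.2, 28.2 and 32.02 CPM. Again no libraries of different gates overlapped, in the order opposite to that of Egr3. The means were 60.7 ± 3.98 CPM (SD, n = 4) in mSC and 7.17 ± 1.18 CPM (SD, n = 4) in nmSC, a log2 fold change of 3.08 with a 95% interval of 2.75 to 3.40 (SE 0.15, adjusted p = 9.43e-12 by edgeR). Counting Nab1 itself, 97 of the tested genes, or 0.522%, rose at least this far. Nab1 was higher in mSC in 4 of 4 mice, with an exact permutation p of 0.0286. Its log2 fold change lay between 2.52 and 3.14 over the 4 scalings and was 3.08 without mSC replicate 4 (adjusted p = 4.20e-13 by edgeR).

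Nab2 stood at 65.1, 84.4, 105 and 105 CPM in mSC libraries 1 to 4. In nmSC it was at 73.0, 69.9, 85.1 and 75.5 CPM, and in allSC at 75.3, 71.8, 85.7 and 94.9 CPM. The gates overlapped, and mSC replicate 1 was the lowest of the 12 libraries. The means were 89.8 ± 19.1 CPM (SD, n = 4) in mSC and 75.9 ± 6.56 CPM (SD, n = 4) in nmSC, a log2 fold change of 0.24 with a 95% interval of -0.077 to 0.56 (SE 0.15, adjusted p = 0.209 by edgeR), and the exact permutation p was 0.286. A fold between 0.948 and 1.47 thus lies within the interval.

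The call on Nab2 rested on the scaling and on 1 library. Scaled by library size alone, Nab2 was lower in mSC in 4 of 4 mice, with a log2 fold change of -0.33 (adjusted p = 0.0402 by edgeR). Without the top 50 genes in the library size it was -0.13 (adjusted p = 0.439 by edgeR), and without mSC replicate 1, with TMM, it was 0.38 (adjusted p = 0.0361 by edgeR). Without mSC replicate 4 it was 0.17 (adjusted p = 0.358 by edgeR). Against the median of all tested genes Nab2 lay 0.40, 0.39 and 0.40 higher with TMM, library size and library size without the top 50 genes. As for Egr2, a scaling could hardly change this distance of Nab2. Of the genes that overlap it, Stat6 rose in mSC from 58.0 ± 10.3 to 129.5 ± 33.3 CPM (SD, n = 4 each, log2 fold change 1.16, adjusted p = 2.79e-05 by edgeR), and Nemp1 had 35.1 ± 2.65 and 42.6 ± 10.99 CPM in nmSC and mSC (0.29, adjusted p = 0.161 by edgeR). The part of their reads in the count of Nab2 was not tested, and Gm16229 was not analysed here.

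**Figure D2:**
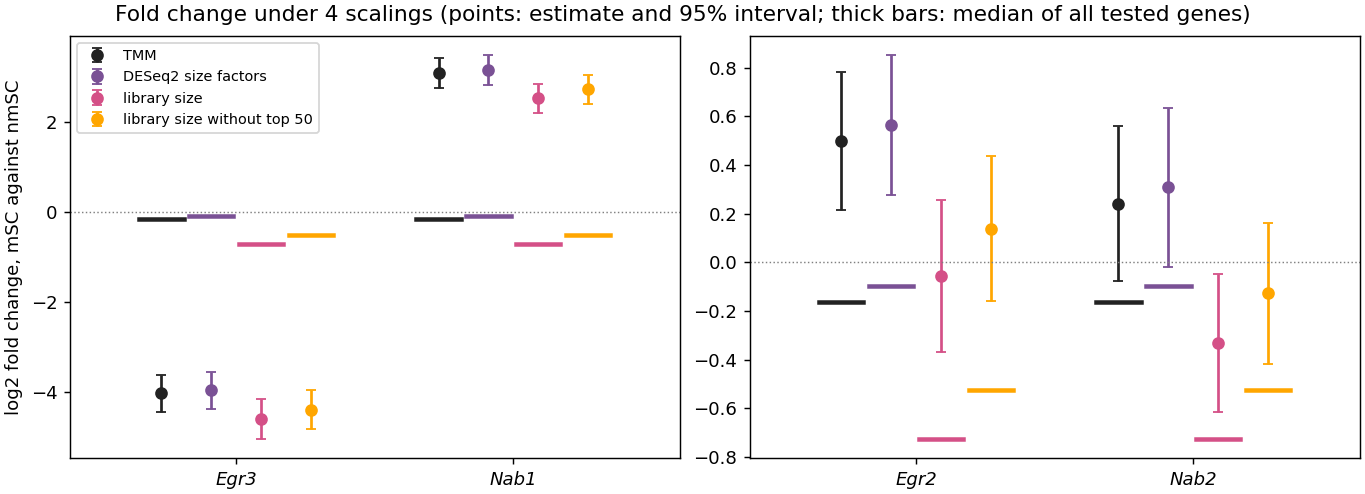
Log2 fold change of mSC against nmSC with its 95% interval for Egr3 and Nab1 (left) and Egr2 and Nab2 (right, on a narrower axis) under 4 scalings of the libraries, with thick bars at the median of all 18597 tested genes. Egr3 and Nab1 keep their direction under every scaling shown, while the values of Egr2 and Nab2 move with the median and change sign.

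The ranges of the 4 mSC and 4 nmSC libraries, in TMM-normalized CPM, were apart for 3 of the 4 tested members, Egr2, Egr3 and Nab1. This was so for 34.2% of all tested genes. With library size alone they were apart for Egr3, Nab1 and Nab2, and not for Egr2, and for 49.8% of all tested genes.

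The allSC gate, which holds cells of both other gates, was compared with each of them in the same model and shares its libraries between both comparisons. Against allSC, mSC had 8.68-fold less Egr3 (log2 fold change -3.12, SE 0.19, adjusted p = 7.52e-10 by edgeR) and 2.04-fold more Nab1 (1.03, SE 0.14, adjusted p = 2.77e-05 by edgeR). Egr2, at 0.20 (SE 0.14, adjusted p = 0.331 by edgeR), and Nab2, at 0.13 (SE 0.15, adjusted p = 0.579 by edgeR), did not pass. Of all tested genes 17.6% passed in this comparison, and 2 of the 4 tested members did. Without mSC replicate 4, Egr2 was called higher in mSC than in allSC (0.33, adjusted p = 0.034 by edgeR).

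Against nmSC, allSC had 1.88-fold less Egr3 (log2 fold change -0.91, SE 0.17, adjusted p = 0.000848 by edgeR) and 4.13-fold more Nab1 (2.05, SE 0.15, adjusted p = 1.20e-08 by edgeR). Egr2 had a log2 fold change of 0.30 (SE 0.14, adjusted p = 0.201 by edgeR) and Nab2 of 0.11 (SE 0.15, adjusted p = 0.766 by edgeR). Here 10.4% of all tested genes passed, and again 2 of the 4 members. On the linear scale, the allSC mean of Egr3 lay 49.9% of the way from the nmSC mean to the mSC mean, and that of Nab1 lay 42.2% of the way.

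Ratios of 2 transcripts within 1 library do not depend on its scaling. They show unequal change and not which of the 2 changed. The log2 ratio of Egr3 to Nab1 counts was between 3.25 and 4.00 in nmSC, between 0.058 and 0.77 in allSC and between -4.11 and -3.29 in mSC. All nmSC libraries thus had more counts of Egr3 than of Nab1, and all mSC libraries had fewer. The ratio differed 141-fold between nmSC and mSC, the widest gap among the 6 ratios of the 4 detected members. Within the Nab pair, the log2 ratio of Nab1 to Nab2 counts was -0.54 ± 0.41 (SD, n = 4) in mSC and -3.41 ± 0.32 (SD, n = 4) in nmSC, a 7.29-fold difference. Between the Egr genes, that of Egr2 to Egr3 was 6.91 ± 0.18 (SD, n = 4) in mSC and 2.38 ± 0.25 (SD, n = 4) in nmSC, a 23.1-fold difference.

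The ratio of Egr2 to Nab1 fell 6.10-fold from nmSC to mSC, so Nab1 was higher relative to Egr2 in mSC under any scaling. The ratio of Egr3 to Nab2 was 19.3-fold lower in mSC. Each of these 5 ratios had an exact permutation p of 0.0286, the smallest possible when all 8 libraries are permuted. Adjusted p was 0.0408 over all 10 ratios of members and 0.0343 over the 6 without Egr4. Swapping the gates only within the 4 mice cannot give a p below 0.125, which each of the 5 reached. That of Egr2 to Nab2 was 2.76 ± 0.56 (SD, n = 4) in mSC and 2.499 ± 0.14 (SD, n = 4) in nmSC on the log2 scale, a difference within the spread (exact permutation p = 0.400, also after adjustment). The 4 ratios that involve Egr4 rest on at most 2 counts of it per library. They are not described here, although 2 of them, those of Egr4 with Egr3 and Nab1, entered the adjustment over 10 ratios at the same p of 0.0286.

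**Figure D3:**
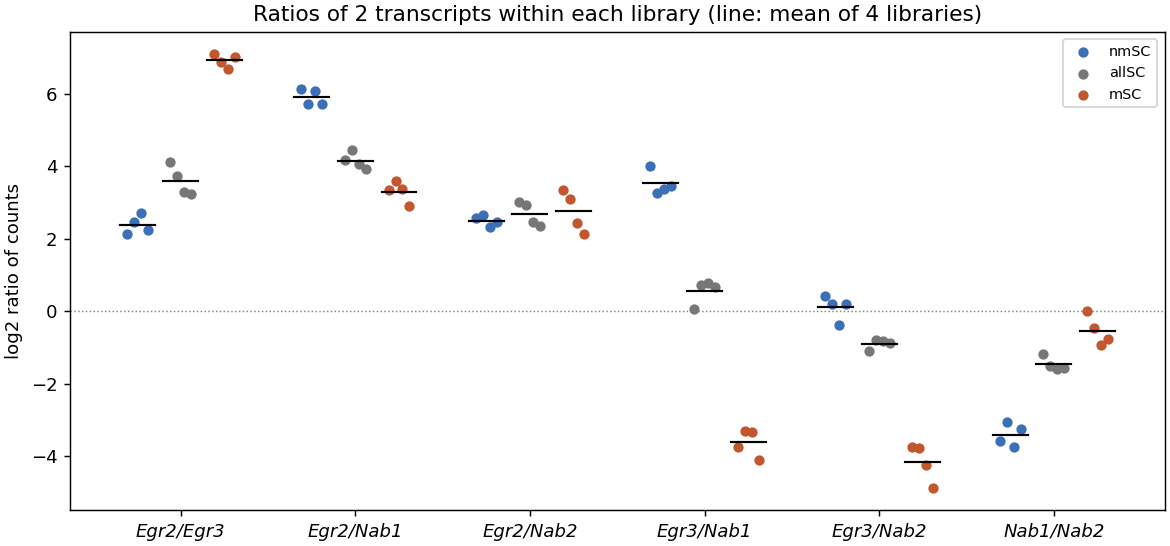
Log2 ratios of counts of 2 members within each library, by gate, with the mean of 4 libraries as a line. For 5 of the 6 ratios the mSC and nmSC libraries do not overlap, and Egr2/Nab2 is the exception.

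Levels of different genes were compared per length, as RPKM, which is CPM per kilobase of exon, from the TMM-normalized CPM and the merged exon length. Per length, Egr2 ranked first in every gate, with 178 ± 34.2 RPKM (SD, n = 4) in mSC, 155 ± 17.7 RPKM (SD, n = 4) in allSC and 126 ± 3.44 RPKM (SD, n = 4) in nmSC. Nab2 came next, with 30.5 ± 6.48, 27.9 ± 3.57 and 25.8 ± 2.23 RPKM (SD, n = 4 each) in the same order of gates. The length of Nab2 takes in the bases shared with Gm16229. Their part in its RPKM and in the shares below was not tested. The places of Egr3 and Nab1 were exchanged between the gates. In mSC, Nab1 had 14.8 ± 0.971 RPKM and Egr3 had 1.14 ± 0.260 RPKM (SD, n = 4 each). In nmSC, Egr3 had 18.8 ± 3.08 RPKM and Nab1 had 1.75 ± 0.288 RPKM (SD, n = 4 each). In allSC they were neighbours whose libraries overlapped, with between 7.94 and 11.7 RPKM of Egr3 and between 6.14 and 8.19 RPKM of Nab1.

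The make-up of the Nab pair shifted with the gate. Of the summed RPKM of Nab1 and Nab2, Nab1 took 33.2% ± 6.34 (SD, n = 4) in mSC, 20.7% ± 2.37 (SD, n = 4) in allSC and 6.40% ± 1.33 (SD, n = 4) in nmSC. Nab2 was therefore the larger of the pair in all 12 libraries, nearest to equality in mSC replicate 1, where Nab1 reached 41.8%. Among Egr2, Egr3 and Egr4, Egr3 took 13.0% ± 1.92 (SD, n = 4) in nmSC and 0.633% ± 0.0813 (SD, n = 4) in mSC.

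Egr1, the paralog that Nab proteins also bind, was lower in mSC, with 103 ± 34.3 CPM (SD, n = 4) against 395 ± 82.2 CPM (SD, n = 4) in nmSC, a log2 fold change of -1.94 (SE 0.21, adjusted p = 3.39e-07 by edgeR). Within the sum of all Egr RPKM, Egr2 accounted for 85.8% to 91.4% in mSC and for 48.6% to 58.5% in nmSC. Egr1 made up 7.87% to 13.7% in mSC and 33.9% to 42.8% in nmSC. These shares depend on the lengths used. Per mean transcript length, Egr2 accounted for 91.6% to 94.9% in mSC and 61.4% to 70.3% in nmSC, and Egr1 for 4.48% to 8.02% and 22.4% to 29.7%, so that Egr2 still took the larger share in every mSC and nmSC library. The summed RPKM of Egr2, Egr3 and Egr4 was 4.06 ± 1.19 times that of both Nab genes in mSC and 5.29 ± 0.529 times in nmSC (SD, n = 4 each), which was not tested.

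**Figure D4:**
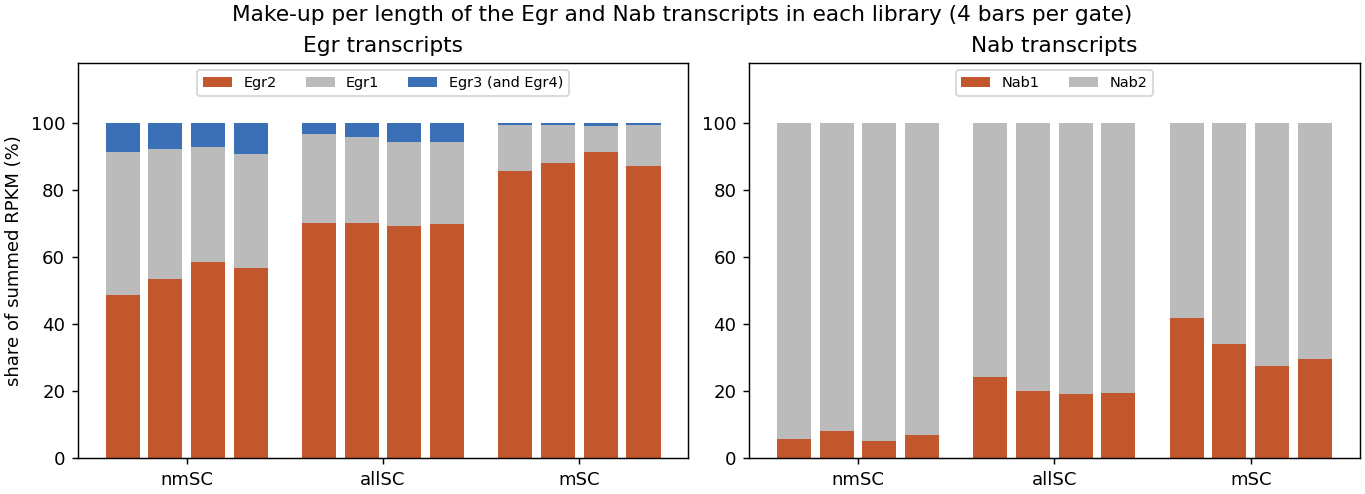
Share (%) of the summed RPKM of Egr1 to Egr4 (left) and of Nab1 and Nab2 (right) in each of the 12 libraries, with 4 bars per gate in the order of the mice. Egr2 makes up between 48.6% and 58.5% of the Egr sum in nmSC and at least 85.8% in mSC, and Nab1 makes up at most 7.96% of the Nab sum in nmSC and at least 27.5% in mSC.

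Libraries of the same mouse were compared for a difference between the mice. With the mouse number as a term beside the gate, no member passed (unadjusted p of 0.128 for Egr2, 0.987 for Egr3, 0.648 for Nab1 and 0.0656 for Nab2, adjusted p = 0.997 for each, by the F-test of edgeR). With library size alone the unadjusted p of this test was 0.0236 for Egr2 and at least 0.190 for the others, and none passed after adjustment. Of all tested genes, 0.0538%, or 10 genes, passed this test.

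Genes known to lie around Egr2 and Nab were taken in 5 lists, chosen with earlier results of these data known. Their counts are context and not a test. All 12 genes taken here that Egr2 is known to activate were called higher in mSC, as were 20.4% of all tested genes. The median log2 fold change of the 12 was 2.57 against -0.16 for all tested genes. All 12 were also called with each of the other scalings. Drp2, a partner of periaxin at the outer SC membrane, rose most, from 17.3 ± 4.57 to 831 ± 253 CPM (SD, n = 4 each, log2 fold change 5.58, adjusted p = 3.47e-12 by edgeR). Pmp2, a fatty acid binding protein of myelin, changed by 4.66 (adjusted p = 1.06e-12 by edgeR) and Pmp22, a membrane protein of compact myelin, by 3.61 (adjusted p = 6.92e-13 by edgeR) on the log2 scale. Beside these, Nab1 had a log2 fold change above the median of the list, and Egr2 itself one under all of its 12 genes, the smallest of which was 1.52 for Cldn19.

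Of 10 genes of immature SCs that Egr2 and Nab proteins are known to keep low, 8 were lower in mSC, against 20.2% of all tested genes. With DESeq2's size factors 7 were lower. None was higher (also none at an unadjusted p under 0.05 or with DESeq2's Wald test), and Id4 and Rrad did not pass. The median log2 fold change of the 10 was -1.24. Ncam1, an adhesion molecule of immature and non-myelinating SCs, fell from 552 ± 69.8 to 48.9 ± 9.04 CPM (SD, n = 4 each, log2 fold change -3.50, adjusted p = 1.30e-12 by edgeR). The neurotrophin receptor Ngfr changed by -2.61 (adjusted p = 2.89e-09 by edgeR) and Id2, an inhibitor of basic helix-loop-helix factors, by -1.41 (adjusted p = 8.34e-06 by edgeR). Egr3 fell further than each of the 10.

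Of 13 factors known to act upstream of Egr2, 6 were lower in mSC, 1 was higher and 6 did not pass, with a median log2 fold change of -0.43. Of all tested genes, 20.2% were lower and 20.4% higher. The neuregulin receptor Erbb3 changed by -0.79 (adjusted p = 0.00318 by edgeR) and Adgrg6, an adhesion receptor needed for the start of myelination, by -0.75 (adjusted p = 0.00154 by edgeR). Ppp3r1, the regulatory subunit of calcineurin, changed by 0.66 (adjusted p = 0.000668 by edgeR), but with library size alone its value was 0.10 (adjusted p = 0.502 by edgeR). Sox10, which acts with Egr2 on myelin genes, had 267 ± 97.6 CPM in mSC and 266 ± 49.8 CPM in nmSC (SD, n = 4 each, log2 fold change 0.0034, SE 0.27, adjusted p = 0.993 by edgeR). With library size alone, 11 of the 13 were lower and none higher, where 55.9% of all tested genes were lower and 7.79% higher, so the counts of this list followed the scaling.

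Among 13 subunits of the NuRD complex, 3 were lower in mSC, 0 were higher (also 0 at an unadjusted p under 0.05, and 1 with DESeq2's Wald test) and 10 did not pass, with a median log2 fold change of -0.093. The share that was lower was near the 20.2% of all tested genes. Those called were Gatad2b (-0.55, adjusted p = 0.00905 by edgeR), Mbd3 (-0.52, adjusted p = 0.00468 by edgeR) and the deacetylase Hdac1 (-0.50, adjusted p = 0.00214 by edgeR), which also stands in the list of upstream factors. Chd4, through which Nab proteins bind the complex, had 151 CPM in mSC and 156 CPM in nmSC (log2 fold change -0.046, SE 0.12, adjusted p = 0.776 by edgeR). With library size alone 11 of the 13 were lower, against 55.9% of all tested genes. Relative to the median of all tested genes, the median of the list was 0.070 higher.

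Of 15 immediate early genes, which growth factors or the dissociation of a tissue can induce, 14 were tested, 4 were lower in mSC, 1 was higher and 9 did not pass, with a median log2 fold change of 0.15. The share called was not above the 40.5% of all tested genes. Ier2 changed by -2.52 (adjusted p = 7.46e-10 by edgeR) and Atf3 by -1.12 (adjusted p = 0.000322 by edgeR), Egr1 being the other of the 3 with the largest change. Fos, the most abundant of the 14 by CPM, had a log2 fold change of 0.078 (SE 0.17, adjusted p = 0.724 by edgeR). Egr3 fell further in mSC than each of these genes. Cells were dissociated with enzymes before the sort in all gates, and the part of that step in the level of Egr3 or Egr1 was not tested.

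**Figure D5:**
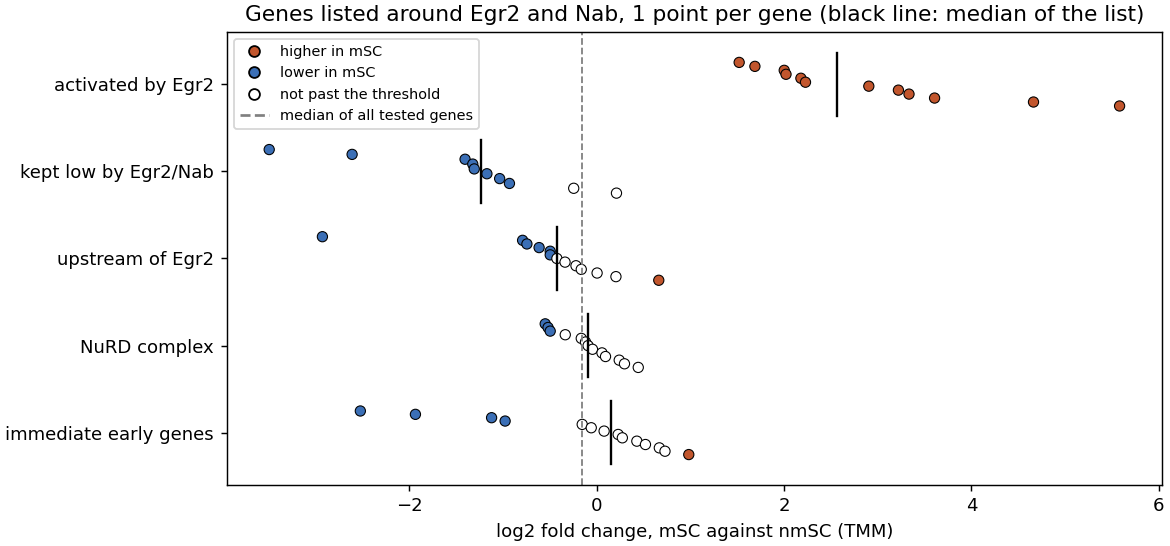
Log2 fold change of mSC against nmSC (TMM) for the tested genes of 5 lists, with 1 point per gene, filled where the adjusted p is under 0.05, the median of each list in black and that of all tested genes as a dashed line. All 12 genes activated by Egr2 lie at or above 1.52, while the medians of the NuRD subunits and of the immediate early genes are -0.093 and 0.15, against -0.16 for all genes.

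The genes whose pattern was most like that of each member were found among 9405 tested genes with a mean of at least 10 CPM, by the root mean square difference of centred log2 levels over the 12 libraries. Nearest to Nab1 were Cyp51, an enzyme of cholesterol synthesis (difference 0.141), Frmd3 (0.146) and Pcyt1b, an enzyme of phosphatidylcholine synthesis (0.153). Cyp51 had means of 202, 820 and 1556 CPM in nmSC, allSC and mSC. Nearest to Egr3 were Ifitm3, an interferon-induced membrane protein (0.244), Ccdc80 (0.262) and the integrin subunit Itgb3 (0.266), which had 257, 148 and 19.8 CPM in the same order. The levels of Egr2 and Nab2 varied little over the libraries, with standard deviations of 0.269 and 0.223 on the log2 scale, so their nearest genes are given as values only. These were Pdcd6ip at 0.107 for Egr2 and Itm2c at 0.0709 for Nab2.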

How the data were processed

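RNA of sorted SCs was turned into cDNA by Smart-Seq2, which amplifies polyadenylated RNA over its full length without molecular identifiers, so floors cover counting error only, while intervals of fold changes come from the model and include the spread between libraries. The authors aligned single-end reads with STAR 2.6.1c, obtained a count per gene with featureCounts and deposited these counts unscaled. The labels name GRCm38.p5, while the methods name a human build. The options for strand and for reads that fit several genes are not given in the sources used here.

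The members and the gene lists were chosen with earlier results of these data known. Symbols, positions and exon lengths came from GENCODE release M21 (GRCm38), and promoter windows from RefSeq (GRCm38.p6), which matched 4 of the 5 members. From the deposited counts, TMM factors were computed and genes filtered by gate with edgeR 4.0.16 in R 4.3.3, and 18597 genes were compared between gates by its quasi-likelihood test in 1 model of 12 libraries, with p-values adjusted by the Benjamini-Hochberg method (threshold 0.05). Members were also tested by two-sided exact permutation tests of log2(CPM + 1) and of log2 ratios of counts with 0.5 added to each. Named are the members, the genes that overlap them, Egr1, the 3 genes of each list with the largest change among those called with a mean of at least 10 CPM, and the 3 genes nearest in pattern. Cldn19, Id4, Rrad, Sox10, Chd4 and Fos were named after their values were seen. One gene of the list activated by Egr2 is not reported here.

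Same-numbered libraries come from the same mouse by the subject label. The correlation of their deviations from the gate means lay between -0.23 and 0.25 across genes, while that between libraries of different numbers reached 0.27. No libraries of a gate were duplicates (chi-square per degree of freedom of at least 4.03). Only the edgeR fit was tried on simulated counts, with as many genes raised as lowered in mSC. That simulation could not test how calls depend on the scaling of the real libraries. Alternatives were other scalings, DESeq2 1.42.0, no filter, only the gates compared, the mouse as a block, other pseudocounts, each library left out and, chosen after seeing the data, the mean transcript length in place of the union of exons and ratios permuted within mice.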

Additional observations from a re-analysis of the deposited data

Results flagged for a closer look

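In 123 groups of 4 libraries, which are the 35 detected genes with values of their own here and 6 ratios of members in each gate, 7 values lay far from the other libraries of their gate by Dixon's criterion, 5.69% of the groups, where chance gives about 1 in 20. Among the members, the log2 ratio of Egr3 to Nab1 counts in allSC replicate 1 was 0.058, against 0.68 to 0.77 in the other allSC libraries. No level of a single member was singled out. Of the listed genes, Drp2 was at 533 CPM in allSC replicate 1 against 385 to 397 CPM in the other 3 libraries. Pmp2 was at 5228 CPM in mSC replicate 4 against 3304 to 3588 CPM, and Ncam1 at 62.4 CPM in mSC replicate 3 against 43.6 to 45.6 CPM. Hdac1 was at 128 CPM in allSC replicate 2 against 122 CPM in the others, and Atf3 at 130.3 CPM in nmSC replicate 3 against 97.5 to 100.8 CPM. Itm2c, the nearest gene to Nab2 in pattern, was at 73.9 CPM in nmSC replicate 3 against 62.7 to 63.7 CPM.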

How the results depend on the processing

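Log2 fold changes below are of the first gate against the second, with adjusted p from edgeR. Scaling by library size alone reversed Egr2 in mSC against nmSC (-0.058) and mSC against allSC (-0.10), and Nab2 in mSC against nmSC (-0.33), mSC against allSC (-0.18) and allSC against nmSC (-0.15). Without the 50 genes with the most counts, Egr2 in mSC against nmSC was 0.14 and no longer called, and reversed were Egr2 in mSC against allSC (-0.0042) and Nab2 in mSC against nmSC (-0.13), mSC against allSC (-0.083) and allSC against nmSC (-0.045). Both scalings shift the median of all tested genes, as given above. With library size alone the permuted differences were -0.089 for Egr2 (exact p = 0.800) and -0.34 for Nab2 (exact p = 0.0286). With library size alone, 11 of 13 factors upstream of Egr2, 11 of 13 NuRD subunits and 7 of 14 immediate early genes were called lower. Of all tested genes, 55.9% were lower and 7.79% higher with this scaling. Without the top 50 genes, 10 upstream factors and 9 NuRD subunits were lower. Upstream factors were higher in 0 cases with both scalings. With DESeq2's size factors, 2 immediate early genes were higher. The shares of all tested genes for these last 2 settings are not given here, so their counts are not read further. With mean transcript lengths, Egr3 took 0.524% of Egr2 to Egr4 in mSC and 10.97% in nmSC, and Egr1 averaged 6.54% of Egr1 to Egr4 in mSC against 11.3% with the union of exons, and 25.3% against 37.5% in nmSC.

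With each library left out in turn, Nab2 in mSC against nmSC lay between 0.17 and 0.38 and was called without mSC replicate 1, and Egr2 in mSC against allSC lay between 0.12 and 0.33 and was called without mSC replicate 4 (the cause was not tested). Egr2 in mSC against nmSC lay between 0.41 and 0.62 and was called each time (adjusted p at most 0.0311), and Egr3 between -4.13 and -3.91 and Nab1 between 3.01 and 3.16 were too. With the mouse as a replicate block, Egr2 was 0.48 (adjusted p = 0.0066), and no call on a member changed. DESeq2's Wald test, no filter, and models of only the gates compared changed no call on a member either. At this depth, Egr4 could not be compared.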

Other observations

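The ratio of Egr2 to Nab2 counts, whose difference between mSC and nmSC was within the spread, was higher in the libraries of mice 1 and 2 than in those of mice 3 and 4 in each gate. On the log2 scale it was 3.35, 3.11, 2.44 and 2.14 in mSC libraries 1 to 4. It was 3.00, 2.93, 2.46 and 2.35 in allSC and 2.56, 2.66, 2.33 and 2.45 in nmSC. This was seen after the values were known, and the split of the mice was not tested as such. The mouse term of the model, fitted to single genes and not to their ratio, did not pass for either gene (unadjusted p of 0.128 for Egr2 and 0.0656 for Nab2, adjusted p = 0.997 for both from edgeR). With library size alone the unadjusted p was 0.0236 for Egr2 and 0.190 for Nab2 by the same test, and neither passed after adjustment. By the methods, 2 libraries of each gate came from male and 2 from female mice. The labels do not say which, so the part of sex in this split was not tested.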
